A study of Oryctolagus cuniculus with 20 samples.

Results

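The genes described here are 5 markers of lymphocytes in rabbit (Oryctolagus cuniculus) blood vessels: CD3D, CD4 and CCR7 for T cells, and JCHAIN and MZB1 for cells that secrete antibody. They were chosen by name among the 23669 genes of the table. CD4, CCR7, JCHAIN and MZB1 were found by their symbol. CD3D, which has no symbol in the table, was found through its NCBI gene number and is described there as the CD3d molecule. All 5 were among the 8657 genes tested, those with at least 1 FPKM (fragments per kilobase of transcript, scaled to library depth) in at least 4 libraries. CD3D, CD4, CCR7 and MZB1 passed this filter only because the graft libraries were counted, as did 1039 of the 8657. Passing in this way favours genes that are higher in grafts, so their number is no support for a change of lymphocyte genes as a class.

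The series holds 20 libraries of total RNA in 5 groups of 4. The experimental groups were a common carotid artery transplanted into a vein, taken at 14 or 30 days after surgery, and are called grafts. The control groups were the artery of the opposite side, which had no operation, taken on the same days from animals that had been operated on. The last group was unoperated external jugular vein, with no day given. The treatment tag transplatation and the cell line tag HASMC stand on every sample, controls and veins included, whereas tissue and cell type name vessels. Replicates are called biological in the titles, but no label ties one to an animal, so p-values measure the spread between samples, which may be technical. No strain, sex, age, genotype, sequencing date or batch was given.

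CD3D is a chain of the CD3 complex, which carries the signal of the T cell receptor into the cell. CD4 is the co-receptor that binds class II histocompatibility molecules. It marks helper T cells, and in several species macrophages also carry it. CCR7 is the chemokine receptor through which naive and central memory T cells, and mature dendritic cells, follow the ligands CCL19 and CCL21 into lymphoid tissue. When B cells become plasma cells, they enlarge their endoplasmic reticulum to secrete immunoglobulin. JCHAIN, the joining chain, links the units of polymeric IgA and IgM, and MZB1 is a chaperone of the endoplasmic reticulum that assists antibody assembly in marginal zone B cells, B1 cells and plasma cells. A normal artery wall holds few lymphocytes, and vessel grafts are known to take up leukocytes.

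Depth could not be read from the table, which gives no read counts. Sums of FPKM ran from 327806 to 671582 per library, and 6759 to 7740 genes per library reached 1 FPKM. ACTA2, the smooth muscle actin, lay between 468 and 7611 FPKM in the arteries, while the endothelial gene PECAM1 was listed at 0 in 16 of the 20 libraries, so a listed 0 can be a failed estimate. The 4 controls of day 14 were nearly alike, with a median SD of 0.0733 on the log2 scale over 1265 well expressed genes, against 0.135 to 0.324 in the other groups. In each of those groups 1 library lay close to a weighted mean of the other 3, with a median absolute log2 difference of 0.0745 to 0.0840. They were graft day 14 replicate 3, control day 30 replicate 2, graft day 30 replicate 4 and vein replicate 4, and are called mixture-like. Results that rest on these libraries are given with control day 14 counted as 1 sample, without the 4 mixture-like libraries, and with both changes, where a call is lost.

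The markers were low in unoperated arteries and higher in the grafts of both days. JCHAIN reached the highest level, with 252 ± 137 FPKM (SD, n = 4) in the grafts of day 30. CCR7 was highest at day 14, while CD3D and CD4 differed between the graft days by less than the spread between replicates. These are vessel extracts, so more cells of a type and more RNA per cell cannot be told apart. FPKM is scaled to transcript length, but estimates can fail for some genes, so levels of different genes can be set side by side only roughly.

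**Figure D1:**
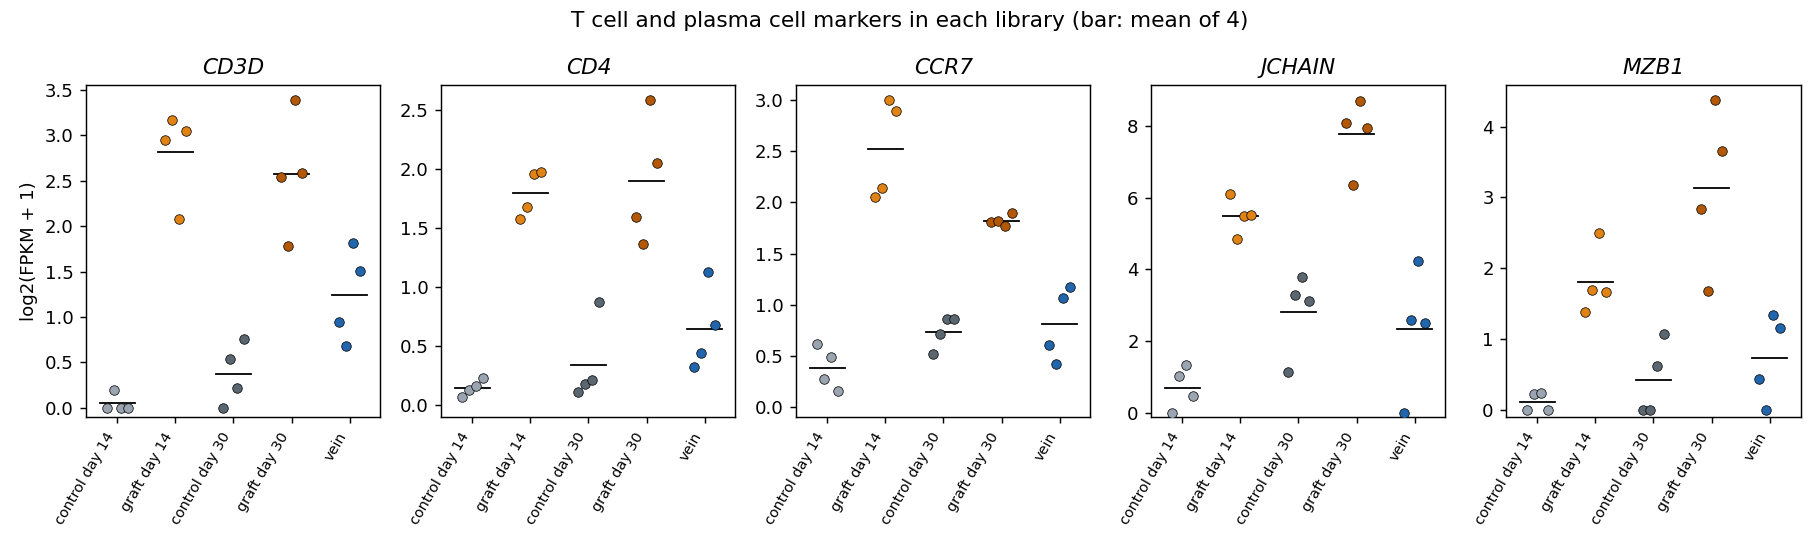
Level of CD3D, CD4, CCR7, JCHAIN and MZB1 on the log2(FPKM + 1) scale (vertical axis, a separate range for each gene) in every library of the 5 groups (horizontal axis), with a point for each library and a bar at the mean of 4. For each gene all 4 grafts lie above the 4 controls of the same day, and CCR7 is lower at day 30 than at day 14 while JCHAIN is higher.

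CD3D was listed at 0 in 3 of the 4 controls of day 14 and at 0.15 FPKM in replicate 2. Grafts of that day held 6.74, 7.99, 3.23 and 7.27 FPKM in replicates 1 to 4. Every graft lay above every control, and replicate 3 was the lowest graft. The controls of day 30 held 0, 0.45, 0.16 and 0.69 FPKM, and the grafts 4.83, 2.43, 9.44 and 5.0 FPKM. Here too the groups did not overlap, although replicates 2 and 3 of the grafts differed by several times. On the log2(FPKM + 1) scale, which understates the change of low genes, CD3D rose by 2.76 at day 14 (SE 0.31, adjusted p = 8.82e-07) and by 2.20 at day 30 (SE 0.31, adjusted p = 2.58e-05). The adjusted p-values come from limma with the Benjamini-Hochberg adjustment over all genes tested.

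CD4 lay at 0.05, 0.09, 0.12 and 0.17 FPKM in the controls of day 14 and at 1.98, 2.20, 2.88 and 2.92 FPKM in the grafts. Means were 0.108 ± 0.0506 and 2.50 ± 0.477 FPKM (SD, n = 4). At day 30 the controls held 0.08, 0.13, 0.16 and 0.83 FPKM and the grafts 2.01, 1.57, 4.99 and 3.13 FPKM, with means of 0.30 ± 0.355 and 2.93 ± 1.53 FPKM. Grafts and controls did not overlap on either day, but replicate 4 of the day 30 controls stood well above the other three. CD4 rose by 1.65 (SE 0.24, adjusted p = 1.50e-05) at day 14 and by 1.55 (SE 0.24, adjusted p = 5.74e-05) at day 30.

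CCR7 was detected in every library. Controls of day 14 held 0.53, 0.21, 0.40 and 0.11 FPKM, and grafts 3.15, 3.42, 7.04 and 6.45 FPKM, with means of 0.313 ± 0.188 and 5.02 ± 2.02 FPKM (SD, n = 4). At day 30 the controls held 0.43, 0.64, 0.81 and 0.81 FPKM and the grafts 2.51, 2.53, 2.40 and 2.72 FPKM, with means of 0.673 ± 0.180 and 2.54 ± 0.133 FPKM. The day 30 grafts were thus close together, whereas at day 14 replicates 3 and 4 were about double replicates 1 and 2. CCR7 rose by 2.14 at day 14 (SE 0.21, adjusted p = 1.69e-07) and by 1.09 at day 30 (SE 0.21, adjusted p = 0.000534).

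JCHAIN had the highest FPKM of the 5. Controls of day 14 held 0, 1.05, 1.56 and 0.40 FPKM, and grafts 67.9, 28.1, 43.8 and 45.0 FPKM. The controls of day 30 held 1.22, 8.71, 12.7 and 7.67 FPKM, and the grafts 269.5, 80.2, 413 and 243 FPKM. On both days the lowest graft was replicate 2, and it still exceeded every control of its day. The log2 change was 4.77 at day 14 (SE 0.72, adjusted p = 2.36e-05) and 4.93 at day 30 (SE 0.72, adjusted p = 3.37e-05).

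MZB1 was listed at 0 in replicates 1 and 4 of the day 14 controls and stood at 0.17 and 0.18 FPKM in the other two. The grafts of day 14 held 1.60, 2.23, 4.63 and 2.17 FPKM. Controls of day 30 held 0, 0, 0.54 and 1.11 FPKM, and grafts 6.12, 2.20, 19.7 and 11.6 FPKM. Each graft lay above each control of its day, and graft replicate 3 was the highest on both days. MZB1 rose by 1.69 at day 14 (SE 0.45, adjusted p = 0.00394) and by 2.71 at day 30 (SE 0.45, adjusted p = 0.000114). Counting control day 14 as 1 sample ended the call at day 14 (adjusted p = 0.121) as did both sample changes (adjusted p = 0.262), and its alternatives gave 0.000559 to 0.262.

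**Figure D2:**
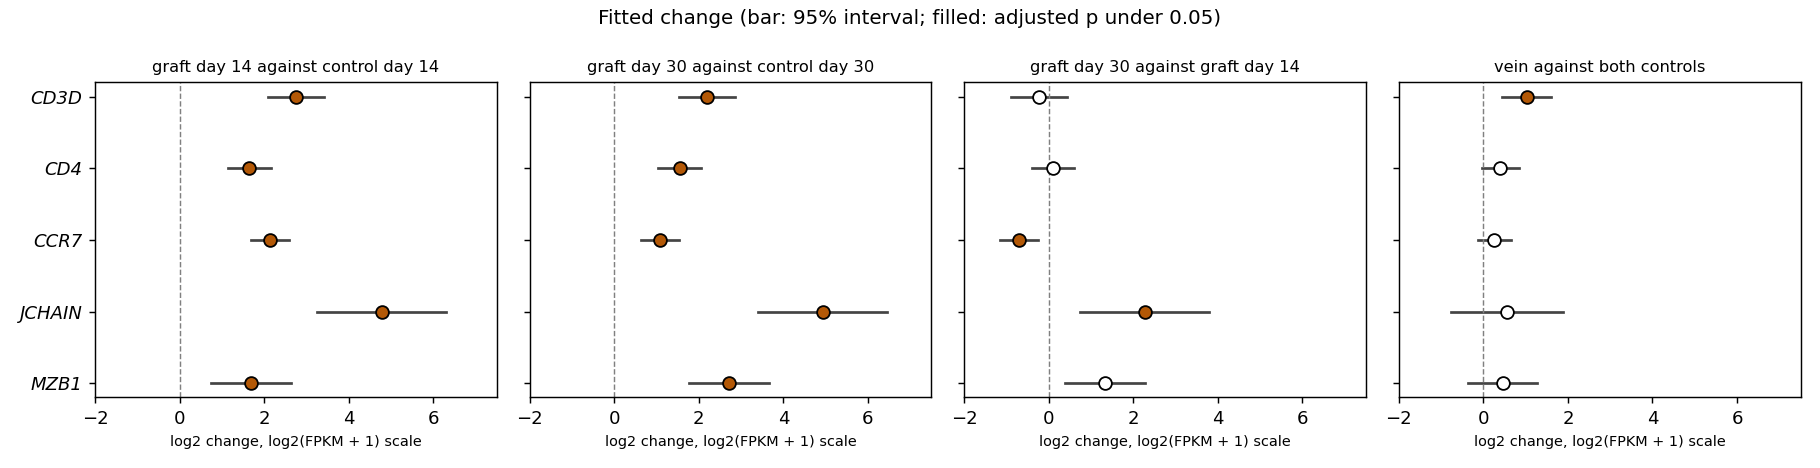
Fitted log2 change of each gene (horizontal axis, log2(FPKM + 1) scale) in 4 comparisons, with points at the estimate, bars for the 95% interval and filled points where the adjusted p passed 0.05. All 5 points are filled in both comparisons of grafts with controls, CCR7 at -0.70 and JCHAIN at 2.27 are filled between the graft days, and CD3D alone is filled for vein.

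At day 14 the test called all 5 genes higher in the graft, where 36.5% of all genes tested were called higher and 17.0% lower. All 5 also had every graft above every control, which held for 33.9% of all genes. At day 30 it again called 5 of 5 higher, against 26.0% of genes higher and 11.6% lower, and for all 5 every graft lay above every control, as for 23.3% of genes. These background shares depend on scaling. The median log2 change of all genes was 0.26 at day 14 and 0.18 at day 30, and median-of-ratios scaling moved it to 0.03 and 0.02. With that scaling 2334 genes were called higher and 2158 lower at day 14, against 3161 and 1473, and 1675 higher and 1488 lower at day 30, against 2253 and 1000. The 5 genes kept their direction and call there.

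The change between the graft days differed by gene. The ratio of the graft means, day 30 over day 14, was 0.860 for CD3D, 1.17 for CD4 and 0.507 for CCR7, but 5.45 for JCHAIN and 3.72 for MZB1. CCR7 fell by 0.70 on the log2 scale (SE 0.21, adjusted p = 0.0320), and all day 30 grafts lay below all day 14 grafts. JCHAIN rose by 2.27 (SE 0.72, adjusted p = 0.0412) without overlap. Among all genes 8.01% were called higher and 8.31% lower at day 30. MZB1 had a log2 difference of 1.33 (SE 0.45, adjusted p = 0.0518), and its groups overlapped because graft replicate 2 of day 30 held 2.20 FPKM. For CD3D the difference was -0.24 (95% interval -0.90 to 0.42, adjusted p = 0.655) and for CD4 0.10 (95% interval -0.41 to 0.61, adjusted p = 0.827).

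Both calls between the graft days were near the threshold. The CCR7 call was lost under 12 of 17 alternatives, with adjusted p from 0.00997 to 0.310 over all of them, among them leaving out replicate 3 (0.107) or 4 (0.0970) of the day 14 grafts. Leaving out replicate 1, 2, 3 or 4 of the day 30 grafts gave an adjusted p of 0.0699, 0.0524, 0.0657 and 0.0566. For JCHAIN 11 of 18 alternatives lost the call, with adjusted p from 0.0186 to 0.324. Among them were leaving out day 14 graft replicate 2, 3 or 4 (0.0851, 0.0795 and 0.0734) and day 30 graft replicate 1, 3 or 4 (0.0991, 0.107 and 0.0851). MZB1 passed without day 30 graft replicate 2 (0.00444) or day 14 graft replicate 3 (0.0447).

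The controls differed between days as well, which the comparison of grafts alone does not take in. In the controls JCHAIN was at most 1.56 FPKM at day 14 and 7.67 FPKM or more in 3 of 4 libraries at day 30. This difference of 2.11 did not pass (95% interval 0.59 to 3.64, adjusted p = 0.0719), and it passed without control day 30 replicate 1 (adjusted p = 0.0261). None of the 5 was called between the control days, where 10.7% of genes were called in either direction. At an unadjusted p under 0.05 there was 1 of the 5, JCHAIN, against 24.6% of all genes, so the count of markers was near the background.

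The difference of the graft effect between days takes the controls into account. By this test the JCHAIN effect at day 30 was 0.16 above that at day 14 (95% interval -2.0 to 2.31, adjusted p = 0.939) and the MZB1 effect 1.02 above it (95% interval -0.32 to 2.35, adjusted p = 0.312). Over the alternatives the JCHAIN difference ran from -1.1 to 0.63, so its direction was not settled. For CD3D the difference was -0.57 (adjusted p = 0.439), and for CD4 -0.10 (adjusted p = 0.882). CCR7 was called, with an effect 1.06 smaller at day 30 (difference -1.06, SE 0.30, adjusted p = 0.0277), where 12.9% of genes were called in either direction. That call was lost under 8 of 25 alternatives. It was lost with control day 14 as 1 sample (adjusted p = 0.268), without the mixture-like libraries (0.120), and without replicate 3 (0.0585) or 4 (0.0558) of the day 14 grafts or replicate 2 (0.0523) or 4 (0.0598) of the day 14 controls.

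In unoperated vein the 5 genes lay between the arterial controls and the grafts or near the controls. CD3D held 0.93, 0.60, 2.53 and 1.85 FPKM in vein replicates 1 to 4, CD4 0.25, 0.36, 1.18 and 0.60 FPKM, and CCR7 0.52, 0.34, 1.09 and 1.25 FPKM. JCHAIN held 0, 5.05, 18.0 and 4.66 FPKM and MZB1 0.35, 0, 1.52 and 1.22 FPKM. Replicate 3 was the highest vein for every gene but CCR7. Against the mean of both control groups CD3D was higher by 1.03 (SE 0.27, adjusted p = 0.00627), with overlap between the groups, where 25.2% of genes were called higher. Its call was lost with control day 14 as 1 sample (adjusted p = 0.0556) and with both sample changes (adjusted p = 0.163), within a range of 0.000406 to 0.163. The other four were not called, with differences of 0.40 for CD4 (95% interval -0.04 to 0.84), 0.26 for CCR7 (-0.13 to 0.64), 0.56 for JCHAIN (-0.76 to 1.88) and 0.46 for MZB1 (-0.36 to 1.28).

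Grafts of day 14 were higher than vein for CD3D by 1.57 (SE 0.31, adjusted p = 0.000556), CD4 by 1.15 (adjusted p = 0.000798), CCR7 by 1.71 (adjusted p = 4.76e-06) and JCHAIN by 3.16 (adjusted p = 0.00180). MZB1 differed by 1.08 without passing (adjusted p = 0.0610), although all 4 grafts lay above all 4 veins, and it passed without vein replicate 3 (adjusted p = 0.0446). Among all genes 25.9% were called higher and 17.5% lower in these grafts. At day 30 all 5 were called higher than vein, by 1.33 for CD3D, 1.25 for CD4, 1.01 for CCR7, 5.43 for JCHAIN and 2.40 for MZB1, against 19.2% of genes higher and 14.2% lower. The highest of these adjusted p-values was 0.00317, that of CD3D, whose lowest graft (2.43 FPKM) lay below the highest vein (2.53 FPKM). The comparisons with vein use the same graft libraries as those with the controls.

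The order of the group medians was therefore not the same for each gene, but no test compared the orders. Between the graft days the calls of CCR7 and JCHAIN were near the threshold, as given above. CD3D, by its median, was highest in grafts of day 14, then grafts of day 30, vein, controls of day 30 and controls of day 14, and the 2 graft groups and the 2 control groups did not differ beyond their spread. CD4 was highest in grafts of day 30, then grafts of day 14, vein and the controls of day 30 and day 14, and again neither the graft groups nor the control groups differed beyond their spread, nor vein from the controls. CCR7 ran from grafts of day 14 to grafts of day 30, vein, controls of day 30 and controls of day 14, and vein did not differ from the controls beyond their spread. JCHAIN ran from grafts of day 30 to grafts of day 14, controls of day 30, vein and controls of day 14, with no call for vein against the controls or between the controls. MZB1 had grafts of day 30 first, then grafts of day 14, vein, the controls of day 30 and those of day 14, with no call between the graft groups, between grafts of day 14 and vein, or between vein and the controls.

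Blood content went with some of these values and against others. HBB2, a hemoglobin chain, was highest in vein replicate 3 (21150 FPKM, against 2592 to 8226 in the other veins) and, among controls of day 30, in replicate 4 (4712 FPKM, against 583 to 1737). The same vein library was the highest of its group for CD3D, CD4, JCHAIN and MZB1, and the same control library for CD3D, CD4 and MZB1. HBB2 was 1.34 higher in grafts than in controls at day 14 (adjusted p = 0.119) and 1.32 higher at day 30 (adjusted p = 0.158), and it passed without graft day 14 replicate 4 (0.0370) or control day 30 replicate 4 (0.0346). Of 6 tested genes of the blood list 0 were called higher, with 1 lower at day 14 and 2 lower at day 30. Over all genes 36.5% were called higher and 17.0% lower at day 14, and 26.0% and 11.6% at day 30. Of the 6, 2 passed the filter only through the grafts. The median summed level of the list was 2618 FPKM in grafts against 1134 FPKM in controls at day 14, and 3634 against 1987 FPKM at day 30. The sums ran over 722 to 4068 FPKM in grafts of day 14 and 2152 to 4854 at day 30, against 1085 to 1176 and 628 to 5096 in the controls and 2693 to 21300 in vein, so grafts and controls overlapped on both days. In grafts of day 30 replicate 3, the highest for CD3D, CD4, JCHAIN and MZB1, had the lowest sum (2152 FPKM). Replicate 2, the lowest for these genes, had the highest (4854 FPKM). At day 14 graft replicates 3 and 4, the highest for CD4 and CCR7, had the lowest sums (1357 and 722 FPKM). JCHAIN was highest in graft replicate 1 of that day, which had the highest sum (4068 FPKM). The part of blood in the marker levels was not tested.

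Of the other genes of the T cell receptor complex and its co-receptors, 15 were listed, 14 were found and 6 passed the filter. At each day 5 of the 6 were called higher and 0 lower, where 36.5% of all genes were called higher at day 14 and 26.0% at day 30. All 6 passed the filter only through the grafts, so a higher level there was largely fixed by the filter and the count is no support for CD3D or CD4. CD3E, the partner of CD3D in the complex, held 0, 0.14, 0.37 and 0.30 FPKM in the controls of day 14 and 3.06, 3.64, 2.97 and 4.04 FPKM in the grafts. Controls of day 30 held 0.09, 0.59, 0.15 and 0.79 FPKM of it and grafts 4.00, 1.47, 6.16 and 4.27 FPKM. As for CD3D, day 30 graft replicate 2 was the lowest and replicate 3 the highest. CD3E rose by 1.88 (adjusted p = 5.05e-05) and 1.76 (adjusted p = 0.000190) at days 14 and 30.

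Among the same list IL7R, the interleukin 7 receptor that sustains resting T cells, rose by 2.49 and 2.17, CD2, an adhesion receptor of T cells, by 1.59 and 1.18, and CD5, which dampens receptor signals, by 1.21 and 0.87 at days 14 and 30. CD8B, a chain of the co-receptor of cytotoxic T cells, did not pass (0.37, adjusted p = 0.177, and 0.45, adjusted p = 0.131), and CD8A was not analysed here. With both sample changes fewer genes of the list were called on each day, and fewer of all genes as well. CD3E (adjusted p = 0.0554, the highest over its alternatives) and CD5 (adjusted p = 0.0575, likewise) were among those lost at day 14.

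Of the genes for signalling and transcription in T cells, 19 of 22 were found and 4 passed the filter, with 3 called higher at each day and 0 lower, against the same background shares of 36.5% and 26.0%. Of the 4, 3 passed the filter only through the grafts. LEF1, a transcription factor of naive T cells that other cells also use, rose by 2.00 at day 14 and by 1.25 at day 30. LCP2, an adaptor downstream of the T cell receptor that myeloid cells share, rose by 3.07 and 1.76, and SKAP1, an adaptor for T cell adhesion, by 0.99 and 0.94. With both sample changes fewer of these 4 were called on each day, and fewer of all genes as well. SKAP1 was then lost at day 14 and LCP2 at day 30. LCK, the kinase that starts the receptor's signal, was listed at 0 in all grafts of day 14 and in 3 of 4 grafts of day 30. Of the cytotoxic list 11 of 20 genes were found and only CST7 passed the filter. It rose by 0.58 (adjusted p = 0.00585) and 0.44 (adjusted p = 0.0419), and both calls were lost with quantile normalization (0.176 and 0.610), with both sample changes (0.311 and 0.139) and with control day 14 as 1 sample (0.128 and 0.0632). The day 30 call was lost under 12 of 17 alternatives in all, among them median-of-ratios scaling (0.138), no mixture-like libraries (0.0786), and leaving out control replicate 1, 3 or 4 (0.0810, 0.0778 and 0.0848) or graft replicate 2, 3 or 4 (0.0702, 0.123 and 0.0668).

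CCR7 has 2 ligands, and their patterns differed. CCL21 held 14.7, 14.6, 14.5 and 12.5 FPKM in the controls of day 14 and 111, 119.5, 73.5 and 64.1 FPKM in the grafts. In the controls of day 30 it held 6.34, 64.5, 125 and 17.0 FPKM, and in the grafts 321, 250.5, 335 and 311 FPKM. No graft overlapped with a control of its day. CCL21 rose by 2.58 at day 14 (adjusted p = 0.000891) and 3.23 at day 30 (adjusted p = 0.000198), the first lost with control day 14 as 1 sample (adjusted p = 0.0632) and with both changes (0.125). In unoperated vein CCL21 was higher than in the controls by 2.43 (adjusted p = 0.000750, limma). Grafts against vein were not called, with -0.41 at day 14 (adjusted p = 0.600) and 1.35 at day 30 (adjusted p = 0.0775). The highest CCR7 grafts of day 14, replicates 3 and 4, were those with the lowest CCL21. Between graft days CCL21 was higher by 1.75 at day 30 (adjusted p = 0.0432), a call lost under 11 of 18 alternatives, among them leaving out any 1 of the day 30 grafts (0.0549 to 0.0937) or day 14 graft replicate 3 (0.0956) or 4 (0.102).

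CCL19 was listed at 0 in 3 of 4 controls and 2 of 4 grafts at day 14, and its change there of 0.21 did not pass (adjusted p = 0.834). At day 30 it was listed at 0 in 3 controls and stood at 4.77, 2.08, 5.15 and 11.2 FPKM in the grafts, a rise of 2.34 (adjusted p = 0.0190) that was lost without graft replicate 4 (adjusted p = 0.0654) and without the mixture-like libraries (0.143). Vein was also higher in CCL19 than the controls, by 2.05 (adjusted p = 0.0181, limma). Grafts against vein were not called, with -1.69 at day 14 (adjusted p = 0.0762) and 0.14 at day 30 (adjusted p = 0.909). Of the 22 other genes found in the list of CCR7 ligands, lymphoid chemokines and homing, 13 passed the filter. At day 14 the test called 9 higher and 0 lower, and at day 30 it called 7 higher and 0 lower, where 36.5% and 26.0% of all genes were called higher. Of the 13, 3 passed only through the grafts. With both sample changes fewer of the 13 were called on each day, and fewer of all genes as well. CXCR4, the receptor for CXCL12 on most leukocytes, rose by 4.91 and 2.95 at days 14 and 30. ITGA4, the integrin chain for entry at inflamed vessels, rose by 2.44 at day 14.

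B cell genes were low. MS4A1, a classical surface marker of B cells, stayed under the filter, with at most 0.71 FPKM in grafts of day 14 and 0.87 FPKM in those of day 30. CD79B, a signalling chain of the B cell receptor, rose by 0.95 at day 14 (adjusted p = 0.00240), which was lost with control day 14 as 1 sample (0.0998), and did not pass at day 30 (0.42, adjusted p = 0.178). Of 19 genes found in the B cell list 6 passed the filter, with 5 called higher and 0 lower at day 14 (background 36.5% higher) and 3 higher and 0 lower at day 30 (26.0%). Of the 6, 3 passed only through the grafts. The called genes also included BTK (2.54 and 2.08) and BLNK (2.10 and 1.21), a kinase and an adaptor of the B cell receptor pathway, and CD37, a tetraspanin (2.15 at day 14). POU2F2, a transcription factor of B cells, rose by 1.09 and 0.90, the first lost with both sample changes (adjusted p = 0.0615). BTK, BLNK and CD37 are known from myeloid cells as well. With both sample changes fewer of the 6 were called higher at day 14 and as many at day 30, while fewer of all genes were called. Median-of-ratios scaling added 1 lower call at day 14.

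**Figure D3:**
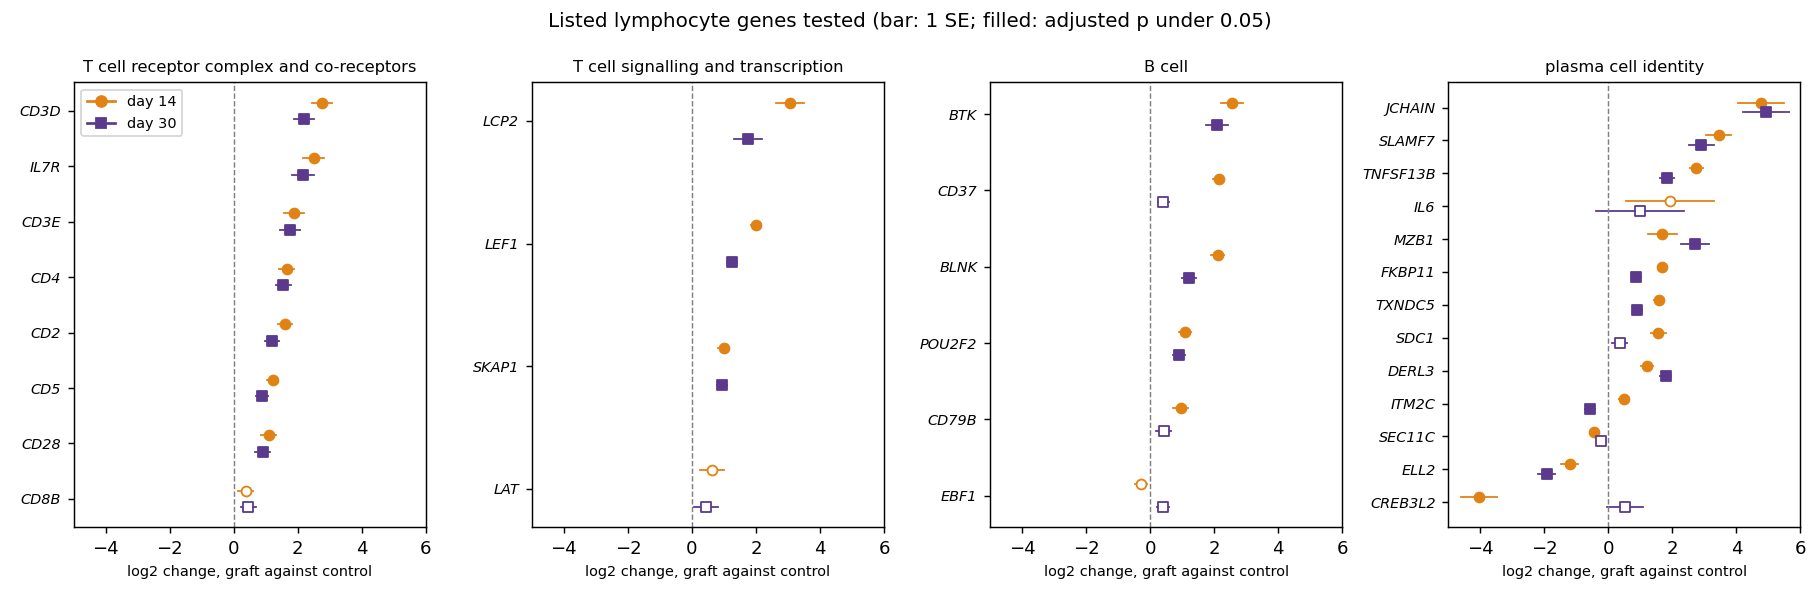
Log2 change of graft against control (horizontal axis) at day 14 (circles) and day 30 (squares) for the genes of 4 lymphocyte lists that passed the filter, with bars of 1 SE and filled symbols where the adjusted p passed 0.05. In the T cell receptor list CD8B alone is open on both days, while the plasma cell list holds genes on both sides of 0, from JCHAIN at 4.77 to CREB3L2 at -4.04 on day 14.

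IGHM, the constant chain of IgM and the immunoglobulin chain gene with values in the table, is given beside JCHAIN. It held 0.84, 0.95, 1.35 and 0.94 FPKM in the controls of day 14 and 13.3, 13.1, 11.9 and 10.4 FPKM in the grafts. At day 30 the controls held 0.45, 2.34, 0.27 and 5.27 FPKM and the grafts 31.8, 16.9, 9.34 and 17.6 FPKM. No graft overlapped with a control of its day. IGHM rose by 2.71 (adjusted p = 0.000132) at day 14, lost with both sample changes (adjusted p = 0.0850), and by 2.88 (adjusted p = 0.000132) at day 30. Between the graft days it differed by 0.48 (adjusted p = 0.542), and its graft effect at day 30 was 0.17 above that at day 14 (adjusted p = 0.896), where the same difference for JCHAIN was 0.16. No test compared the 2 genes. Day 30 graft replicate 3, the highest of its group for JCHAIN and MZB1, was the lowest for IGHM.

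The other plasma cell genes moved in both directions. Of 19 found besides JCHAIN and MZB1, 11 passed the filter. The test called 7 higher and 3 lower at day 14, and 5 higher and 2 lower at day 30. Background shares were 36.5% higher and 17.0% lower at day 14, and 26.0% and 11.6% at day 30. With both sample changes fewer of the 11 were called at day 14 in each direction. At day 30 as many were called higher and fewer lower. Fewer of all genes were called on each day with these changes. Of the 11, 4 passed only through the grafts. TNFSF13B, the survival factor BAFF that myeloid cells make, rose by 2.75 and 1.83 at days 14 and 30. SLAMF7, a surface receptor of plasma cells, macrophages and natural killer cells, rose by 3.44 and 2.90. FKBP11 and TXNDC5, folding enzymes of the endoplasmic reticulum, rose by 1.69 and 1.57 at day 14 and by 0.87 and 0.91 at day 30. DERL3, part of the machinery that removes misfolded proteins from the endoplasmic reticulum, rose by 1.21 and 1.79, the first lost with both sample changes (adjusted p = 0.0598).

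Lower calls in that list were ELL2, an elongation factor for secreted immunoglobulin messages that fell by 1.20 and 1.93, CREB3L2, a transcription factor of secretory cells, and SEC11C, a signal peptidase subunit, at day 14, and ITM2C at day 30. The day 14 call was lost with control day 14 as 1 sample for ELL2 (adjusted p = 0.0583) and SEC11C (0.132), and with both sample changes (0.135 and 0.2375). ITM2C was 0.48 higher at day 14 (adjusted p = 0.0168) and fell by 0.58 at day 30 (adjusted p = 0.00771). Its day 14 call was lost under 6 of 18 alternatives, with adjusted p up to 0.394, among them control day 14 as 1 sample (0.223), median-of-ratios scaling (0.283) and leaving out graft replicate 4 (0.0578), and its day 30 call with both sample changes (0.0716). CREB3L2 was listed at 0 in 3 of 4 controls of day 30 but averaged 17.3 ± 2.76 FPKM (SD, n = 4) in the controls of day 14. PRDM1, the master regulator of plasma cells, stayed under the filter. It held 0.72, 0.95, 1.39 and 1.25 FPKM in grafts of day 14 and 1.15, 0.27, 0.28 and 0.44 FPKM in those of day 30, against at most 0.09 and 0.30 FPKM in the controls of these days. IRF4, its partner, was at most 0.13 FPKM in any library. TNFRSF17, the survival receptor BCMA, was listed at 0 in all libraries but 2 grafts, at 0.16 FPKM on day 14 and 0.42 FPKM on day 30. CD79A and XBP1 were not analysed here.

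Genes were also ranked by how like their pattern was to each marker, by Pearson's r of log2(FPKM + 1) over the 20 libraries. These libraries share the difference between grafts and controls, so r is also given after group means were subtracted, and is a description. CD3E came first for CD3D (r = 0.960, and 0.844 within groups), ahead of the class II genes RLA-DRB1 (0.955 and 0.734) and HLA-DMA (0.947 and 0.402), the kinase CDK18 (0.946 and 0.520) and the cytokine IL34 (0.945 and 0.450). Nearest to CD4 were 4 T cell genes, CD2 (0.977 and 0.900), CD3E (0.969 and 0.811), SKAP1 (0.965 and 0.802) and CD5 (0.964 and 0.866), then the galectin LGALS9 (0.950 and 0.806).

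CCR7 had other neighbours. The closest were RRM2, a subunit of ribonucleotide reductase (0.979 and 0.772), MYBL2, a transcription factor of dividing cells (0.975 and 0.791), the mitotic kinases MELK (0.974 and 0.779) and BUB1 (0.973 and 0.789), and CERKL (0.972 and 0.675). RRM2 averaged 13.0 FPKM in grafts of day 14 and 5.36 FPKM in those of day 30, a decline like that of CCR7. For JCHAIN the nearest were SKAP1 (0.936 and 0.647), DERL3 (0.918 and 0.442), HSD11B2 (0.907 and 0.132), NFKBID (0.907 and 0.631) and AMMECR1 (0.903 and 0.152). For MZB1 they were DERL3 (0.940 and 0.790), DNASE1L3, a secreted nuclease (0.900 and 0.623), CD3E (0.897 and 0.746), SKAP1 (0.893 and 0.574) and HSD11B2 (0.882 and 0.311).

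**Figure D4:**
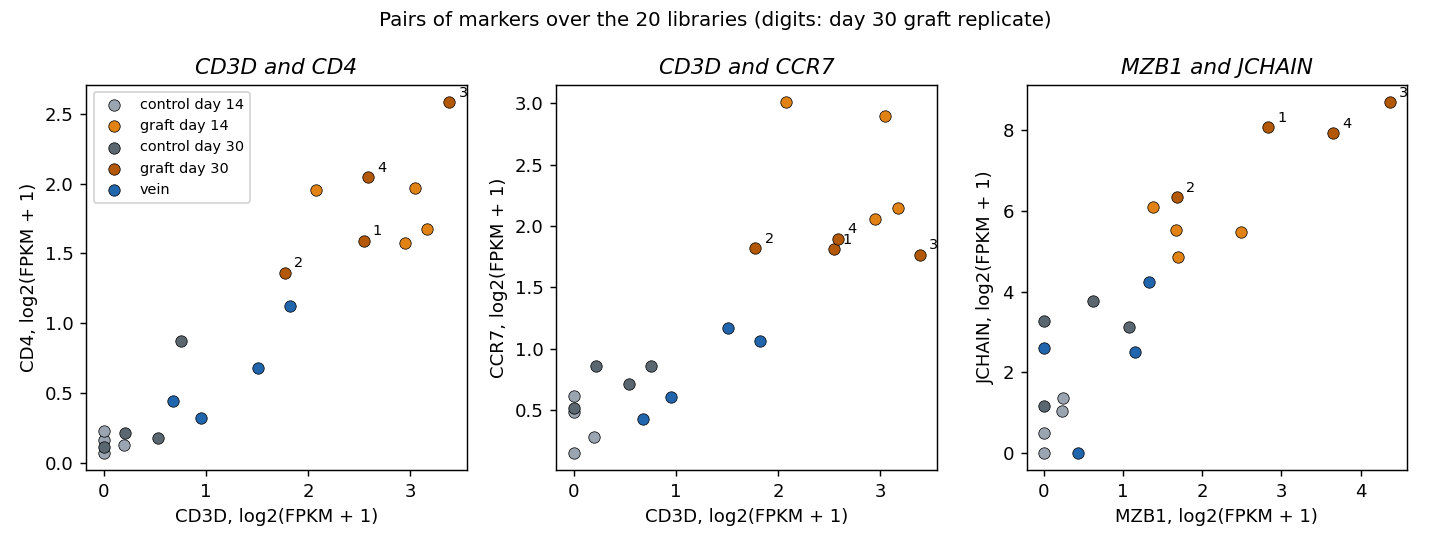
Level of CD4 and CCR7 against CD3D, and of JCHAIN against MZB1, on log2(FPKM + 1) axes, with a point for each of the 20 libraries coloured by group and digits for the replicate in the day 30 grafts. Among those grafts replicate 2 is lowest and replicate 3 highest for CD3D, CD4, JCHAIN and MZB1, whereas CCR7 stays between 2.40 and 2.72 FPKM.

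Among themselves the markers were related unequally. Over all 20 libraries r ran from 0.722 for CCR7 and MZB1 to 0.945 for CD3D and CD4. With group means subtracted it was 0.879 for CD4 and MZB1, 0.681 for CD3D and CD4, and 0.531 for JCHAIN and MZB1, but 0.0467 for CD3D and CCR7. In the 4 grafts of day 30 CD3D, CD4, JCHAIN and MZB1 shared their lowest library, replicate 2, and their highest, replicate 3. CCR7 did not share this order, with replicate 3 as its lowest graft.

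Genes of macrophages, dendritic cells and class II presentation rose in the same grafts. Of 11 macrophage genes tested 8 were called higher and 1 lower at day 14, and 9 higher and 0 lower at day 30. Over all genes 36.5% and 26.0% were called higher. With both sample changes fewer of these genes were called higher on each day, and fewer of all genes as well. Of the 11, 4 passed the filter only through the grafts. The summed level of the 21 found was 305 to 713 FPKM in grafts of day 14 and 419 to 517 at day 30, against 50.4 to 58.3 and 23.4 to 42.0 in the controls and 69.7 to 123 in vein. No control or vein library had a CD68 value above 0. C1QA, another macrophage gene, was listed at 0 or at most at 0.34 FPKM everywhere. Graft replicates 3 and 4 of day 14, the highest for CCR7 and CD4, also had the highest macrophage sums (655 and 713 FPKM) and dendritic cell sums (60.8 and 55.9 FPKM, against 34.8 and 21.1 in replicates 1 and 2).

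Of 7 dendritic cell genes tested 5 were called higher and 0 lower at day 14, and 4 higher and 0 lower at day 30. The background shares were again 36.5% and 26.0%, and 3 of the 7 passed only through the grafts. With both sample changes fewer of the 7 were called higher on each day, and fewer of all genes as well. FLT3, a growth factor receptor of dendritic cell precursors, rose by 2.11 and 2.39. The class II list had 6 of 6 tested genes higher at day 14 and 5 of 6 at day 30, against the same shares. RLA-DR-ALPHA led the list (5.46 and 5.08). Of the 6, 1 passed the filter only through the grafts. With both sample changes fewer of the 6 were called higher at day 14 and as many at day 30. Fewer of all genes were called on each day with these changes. CD74, the invariant chain, was listed at 0 in all grafts of day 30. The part of macrophages and dendritic cells in the levels of CD4 and CCR7 was not tested.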

How the data were processed

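Per the labels' protocols, RNA of rabbit vessels was extracted with TRIzol and made into 20 paired libraries for a NovaSeq X Plus. The authors deposited 1 table of FPKM for 24964 transcripts. They used fastp, HISAT2, StringTie, RSEM and DESeq2, per the submitters' processing notes. Versions, the genome build and strand handling are not given in the sources used here. Read depth per library is unknown, so no counting error is given. Vein columns were matched through the library names in the labels (V2, V3, V4 and V1 are replicates 1 to 4).

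FPKM was summed per gene identifier. Symbols came from the table, and for 613 tested genes from RefSeq through the NCBI gene number. Of the tested genes 1137 had no symbol. limma 3.58.1 (R 4.3.3) was fitted to log2(FPKM + 1) for the 8657 genes that reached 1 FPKM in 4 or more libraries. The fit had a mean per group over all 20 libraries and variances that follow the level. It gave 8 two-sided contrasts with Benjamini-Hochberg adjustment over all genes and a threshold of 0.05. Errors are SD for FPKM and limma's standard errors for log2 changes. The fit was also run on simulated normal values with the same spread of a gene in every group and no lower limit. The libraries here differ from that setting, so the run does not cover unequal spreads or values near the lower limit. Python 3.11.15 was used for the rest.

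The 5 genes and the lists were chosen with earlier results of these data known. Named are the 5 genes, up to 3 genes per list with the smallest adjusted p at each day, a fixed set of lymphocyte genes (CCR7 ligands, CD3E, B and plasma cell markers), and the 5 genes nearest to each marker. LCK, CD74, C1QA, PECAM1, HBB2, ITGA4, CREB3L2, SEC11C, ITM2C, DNAJB9 and DNAJC3, where outside this rule, were chosen after their values were seen. Alternatives were another pseudocount (0.1), a stricter filter (5 FPKM) and none, scaling by median of ratios or quantiles, a fit of the compared groups alone, the replicate number as a block, and each library left out in turn. Leaving out the mixture-like libraries, counting control day 14 once, and both together were chosen with earlier results known. A mixture was a mean of the other 3 libraries with weights in steps of 0.05, compared over genes with a mean of 10 FPKM or more. Some genes of the lists are counted in them but not reported here by name.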

Additional observations from a re-analysis of the deposited data

Results flagged for a closer look

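Among 25 combinations of marker and group, 2 had 1 library far from the rest. Chance gives about 1 in 20 for normal values, a rate that does not apply to values tied at 0. CD3D stood at 0.15 FPKM in replicate 2 of the controls of day 14 and was listed at 0 in the others, a gap between values near the lower limit of the table. With the others tied at 0, any value above 0 would have been flagged. CD4 stood at 0.83 FPKM in replicate 4 of the controls of day 30, against 0.16 FPKM or less in the others. That library also held the most HBB2 of its group, 4712 FPKM, and the most CD3E, 0.79 FPKM. Without it the CD4 rise at day 30 kept its direction and call.

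The effect of grafting on CCR7 was called different between the days, with a difference of -1.06 on the log2 scale (SE 0.30, adjusted p = 0.0277, limma). The call was lost under 8 of 25 alternatives, among them control day 14 as 1 sample (adjusted p = 0.268), no mixture-like libraries (0.120), both changes (0.610), and leaving out replicate 3 (0.0585) or 4 (0.0558) of the day 14 grafts or replicate 2 (0.0523) or 4 (0.0598) of the day 14 controls. Every day 30 graft lay below every day 14 graft, while the controls of the days overlapped.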

How the results depend on the processing

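Over 40 comparisons of a marker there were 756 alternatives. Of these, 712 stayed on the same side of the threshold, 35 lost a call, 9 gained one and 0 reversed a call. Some of the 712 changed direction where neither fit gave a call, as for JCHAIN in the difference between days (-1.1 to 0.63). In 31 of the 40 no alternative changed the call. Calls changed for MZB1 in 3 comparisons, for CCR7 and JCHAIN in 2 each, and for CD3D and CD4 in vein. Of the 5 markers, the filter of 5 FPKM left only CD3D and JCHAIN to test, so that it called 2 for grafts against controls on each day and for each graft group against vein, 1 for grafts of day 30 against day 14 and 0 for the difference between days. CD4 in vein passed with a pseudocount of 0.1 (adjusted p = 0.0268), which made 2 markers called there, and 0 between the graft days. With no filter 0 were called between the graft days and 0 for the difference, and with only the groups compared 1 between the graft days.

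Control day 14 as 1 sample lowered the genes called from 4634 to 2516 for grafts at day 14, from 3214 to 2051 for vein, from 1121 to 95 for the difference between days and from 929 to 29 between controls. It left 0 markers called for vein, the difference and the graft days. Without the mixture-like libraries 381 genes were called for the difference, 433 between controls, 424 between grafts (from 1412) and 1918 for grafts of day 30 against vein (from 2894), with 0 markers for the difference and 0 between grafts. Both changes gave 1671 genes for grafts at day 14, 1757 at day 30 (from 3253), 7 for the difference, 88 between grafts, 8 between controls, 1117 for vein, and 2078 (from 3750) and 1286 for the grafts of day 14 and 30 against vein. They gave 0 markers for the difference, 0 between grafts and 0 for vein. Comparing only the 2 graft groups gave 321 genes. The cause was not tested, except that these settings hold fewer samples.

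Leaving out 1 library at a time gave 918 to 1658 genes and 0 to 2 markers between the graft days, 0 to 1 markers for the difference and 0 to 1 between controls. With the replicate number as a block, 1 marker was called between the control days (JCHAIN, adjusted p = 0.0455), and MZB1 was called between the graft days (0.0155) and for grafts of day 14 against vein (0.0167). The block gave 4573 genes for grafts at day 14 and 3186 at day 30. The labels do not say whether the numbers pair the samples. Correlations of same-numbered deviations ran from -0.107 to 0.127 for grafts and controls of day 14 and from -0.18 to 0.063 for day 30. These correlations cannot decide it, because the samples per group are few and the controls of day 14 were nearly alike. FPKM without counts limits what can be said of values near 0.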

Other observations

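The list for the secretory pathway of the endoplasmic reticulum did not follow JCHAIN between the graft days. Of its 21 tested genes 14 were called higher and 2 lower in grafts of day 14, and 7 higher and 2 lower in grafts of day 30. Over all genes 36.5% were called higher and 17.0% lower at day 14, and 26.0% and 11.6% at day 30, so the counts at day 30 were near the background. From day 14 to day 30 of the grafts 0 were called higher and 9 lower, where 8.01% of all genes were called higher and 8.31% lower, while JCHAIN was called higher. With median-of-ratios scaling the calls at day 30 were 1 higher and 4 lower, where 1675 of 8619 genes were called higher and 1488 lower. Those between the grafts were 0 higher and 7 lower, where 692 of all genes were called higher and 575 lower. With both sample changes fewer were called higher at day 30 and fewer lower between the grafts, and fewer of all genes as well. SDF2L1, a chaperone partner of the endoplasmic reticulum, rose by 2.33 and 1.51 at days 14 and 30, DNAJB11, a co-chaperone, by 0.80 and 0.28, and PDIA6, a disulfide isomerase, by 1.10 and 0.36. The day 30 calls of DNAJB11 (adjusted p = 0.368) and PDIA6 (0.157) were lost with median-of-ratios scaling, and with both sample changes (0.146 and 0.126). DNAJB9 and DNAJC3, co-chaperones of the unfolded protein response, fell by 0.57 and 0.45 at day 30. The summed level of the 24 genes found was 2142 to 2853 FPKM in grafts of day 14 and 1725 to 1910 FPKM at day 30, against 1408 to 1449 and 1404 to 1605 FPKM in the controls.

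Genes of other cell types moved in the same grafts. CD14, a receptor of monocytes, rose by 5.37 and 3.66, TREM2, a lipid receptor of macrophages, by 5.34 and 3.72, and C1QC, a complement chain, by 3.34 and 3.02 at days 14 and 30. IRF8, a transcription factor of dendritic cells and monocytes, rose by 2.95 and 1.95, CD86, a costimulator of T cells, by 3.12 and 2.90, and CTSS, the protease that trims the class II invariant chain, by 4.05 and 3.77. CCL17, a chemokine for CCR4 on T cells, did not pass at day 14 (0.56, adjusted p = 0.325) and rose by 2.49 at day 30 (adjusted p = 0.000322). CCL22, which binds the same receptor, rose by 2.56 and 1.83. The first call was lost with control day 14 as 1 sample (adjusted p = 0.137) and with both sample changes (0.319). The second was near the threshold (adjusted p = 0.0493) and was lost under 16 of 18 alternatives, whose adjusted p ran from 0.00889 to 0.197. In the vessel wall list ACTA2 fell by 3.51 and 2.17 and MYH11, the smooth muscle myosin, by 3.91 and 2.38, while VWF, an endothelial gene, rose by 2.96 and 3.30. ITGA2B, a platelet gene, fell by 1.71 and 1.34. Some of these genes also differed between vein and the controls. VWF was 5.40 higher in vein, and the grafts differed from vein by -2.82 and -1.73 at days 14 and 30. CD14 was 1.75 higher in vein and RLA-DR-ALPHA 3.67 higher. Grafts of days 14 and 30 stood above vein by 3.25 and 2.27 for CD14 and by 1.82 and 1.38 for RLA-DR-ALPHA.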
